A study of Mus musculus with 9 samples.

Results

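Glucocorticoid receptor (GR) binding sites gained with corticosterone (CORT) were described in N2A cells, a mouse neuroblastoma line. A gained site was a MACS2 peak of the GR list after CORT that shared no base with any peak of the GR list after vehicle. Peaks over coding exons of Nr3c1 and Nr3c2, the genes of GR and of the mineralocorticoid receptor (MR), were removed first, because the transfected receptor plasmids give reads there. This left 10537 gained sites among the 10588 GR sites of the 2 lists, or 99.5% of them. The whole series holds 30508 peaks in 6 lists of GR and MR.

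ChIP-nexus maps protein-bound DNA by trimming precipitated fragments with λ-exonuclease up to the crosslinked protein. Cells of both arms were transiently transfected with EGFP-GR and mCherry-MR, kept in charcoal-stripped serum, and given either vehicle or 100 nM CORT for 20 min. A washout arm, whose GR peaks are used below only for overlaps, had 100 nM CORT for 20 min. Its medium was then changed 2 times and the cells were kept for 40 min more without CORT. The receptor cDNAs were from rat according to the study's methods and from mouse according to the sample labels. The cells also carry their own GR, which the pull-down through EGFP would not capture directly, and both receptors were present together in every sample.

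The 3 replicates of each condition were combined before peak calling, so every value below comes from 1 list per treatment and has no replicate error. The study also called peaks in the separate CORT replicates. It reports far fewer GR sites called reproducibly across replicates than in the combined list. The combined list does not show which gained sites these are, so a site named below may not have been called in more than a single replicate. Percentages are followed by 95% Wilson intervals, which cover counting error only. The tests compare sites within a list, not treatments. Strength is the −log10 p that MACS2 gave each peak against input chromatin. It depends on depth, which peak lists do not hold, so it was used to rank sites inside the CORT list and not as an amount of binding. A site absent from the vehicle list may have been bound too weakly to pass the threshold at the depth of that library. Binding data hold no expression, so the identity of the cell line could not be checked with marker genes.

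GR is a nuclear receptor that waits in the cytoplasm with chaperones until a glucocorticoid binds it, and then enters the nucleus. There it can bind as a dimer to the glucocorticoid response element (GRE), an inverted repeat of AGAACA and TGTTCT separated by 3 bases, or reach chromatin through other factors such as AP-1. Many of its sites in other cells are enhancers far from promoters, often in chromatin that was already open.

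The GRE matches below were taken from strong gained sites and gained promoters that have one with at most 3 mismatches, and from sites with a full match, to show how far the closest match near each summit departs from the consensus. Whether GR contacted these letters is not shown by the lists, and the first 3 matches lie 54, 60 and 80 bp from the summit. Each is the plus strand of RefSeq GRCm38.p6, 25 bases with the match in the middle. Capitals mark the letters that equal the 12 fixed positions of the GRE.
Gm20388 intron, strongest gained site, chr8:123786463-123786487: ccagcAGgACAgaacGTTCTctgtt
Nfkbia promoter, chr12:55492017-55492041: cgcccgGAACgcccTGTaCTtcccc
Col4a2 intron, chr8:11382184-11382208: agtcctGAACAtctTGTaaTtgaat
Ddc intron, chr11:11844618-11844642: tggccAGgACAttcaGTcCTtggcc
Pmm1 promoter, chr15:81960312-81960336: tgcctgGAACgccgcGTTCTcacgc
Fkbp5 intron, chr17:28512888-28512912: ttgctgGAACAcaagGTaCTgcacc
Tns2 promoter, chr15:102102644-102102668: ggccggGgACAcagTGTTCTccact
Cdkn1a promoter, chr17:29094694-29094718: tggcggGcACAgtaTGTTCccaggg
Per1 promoter, chr11:69099411-69099435: aggctgGAACAtccTGTTCTcagcg
Pnmt promoter, chr11:98386084-98386108: aggccAGAACAgagTGTcCTttctg
P4ha2 intron, chr11:54113180-54113204: agctcAGAACAggcTGTTCTgcctg
upstream of Ddit4, chr10:59974268-59974292: gagccAGAACAcaaTGTTCTcagct
second Fkbp5 intron site, chr17:28420316-28420340: agcacAGAACAcccTGTTCTgaatg
The first 8 of these matches have 2 or 3 mismatches, those of Per1 and Pnmt have 1, and the last 3 have 0. The promoters of Per1, a circadian repressor, and Pnmt, the enzyme that makes adrenaline, were singled out for sequence after their matches had been seen, as were the sites with a full match.

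The gained sites spanned −log10 p from 4.35 to 70.8, with a median of 8.66 and quartiles of 7.38 and 11.4. Only 403 sites exceeded 20 and 65 exceeded 30. Many sites shared a value, and 1187 of them stood at 7.38. Widths ranged from 81 to 1020 bp, with a median of 121 bp. Among the 100 strongest peaks of the whole CORT list, 84 were gained, 1 was over a vehicle peak and 15 lay in receptor coding exons. The strongest receptor exon peak had a −log10 p of 77.0, above every gained site.

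The strongest gained site lay at chr8:123786119-123786566 in an intron of Gm20388, a long annotated gene that spans many shorter ones, and 19.6 kb upstream of the start of Rab4a, a small GTPase of endosome recycling. Its −log10 p was 70.8 in the GR list, and the MR peak over it had 60.2. The next was at the promoter of Nfkbia, the inhibitor that holds NF-κB in the cytoplasm, 678 bp downstream of the start, with 55.7. An intron of Col4a2, a collagen chain of basement membranes, held the third at 50.4. The fourth, at 47.2, was far from genes and 34.6 kb upstream of Srp9, a subunit of the signal recognition particle.

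An intron of Ddc, which encodes the decarboxylase that makes dopamine and serotonin, held a site at 46.0. Introns of Macrod1, a hydrolase that removes ADP-ribose, of Wnt3, a secreted ligand, and of Extl1, a glycosyltransferase of the exostosin family, held sites at 44.2, 38.9 and 38.8. Fkbp5, a co-chaperone that lowers the hormone affinity of GR and a classical glucocorticoid target, had a site at 37.0, 1590 bp upstream of its nearest annotated transcript start. Of the 15 strongest gained sites, 8 were in introns, 3 at promoters, 2 far from genes, 1 in the flank of a gene and 1 in other genes. All 15 overlapped an MR peak after CORT, 8 overlapped a GR peak after washout, and 0 overlapped a border pair of the CORT input. Over all gained sites these shares were 60.9%, 1.58% and 0.256%. In the strongest quintile of gained sites 93.3% had an MR peak. An input border pair is a stretch between 2 borders that the program MACE paired, in chromatin that was not precipitated. A GRE with at most 3 mismatches lay within 100 bp of the summit in 6 of them, 7 had a best match with 4, and 2 had one with 5.

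**Figure D1:**
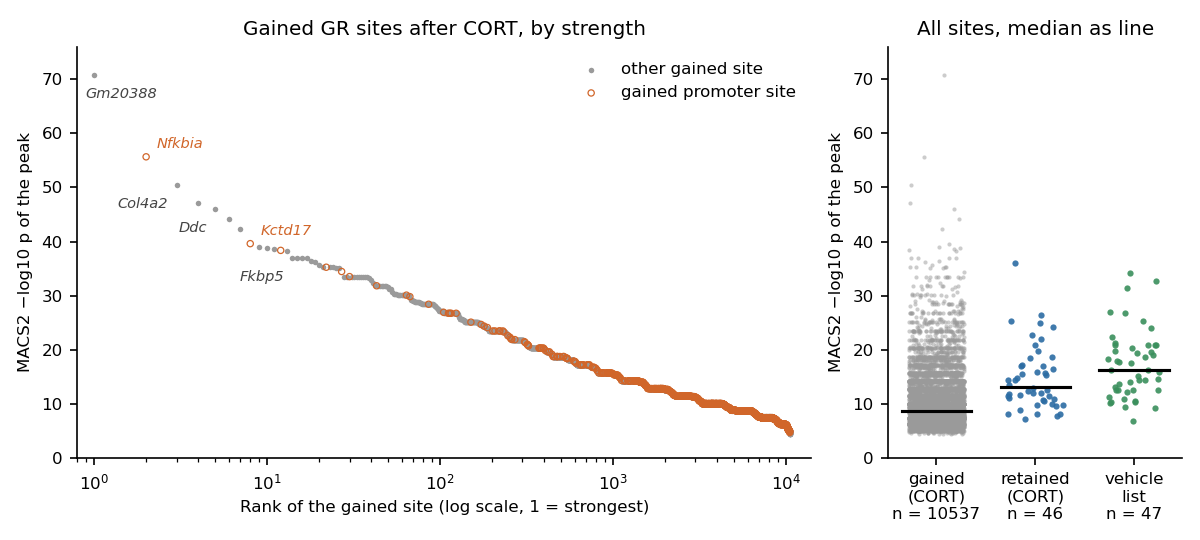
Left, −log10 p of each of the 10537 gained GR sites against its rank on a log axis, with promoter sites as open orange circles and the other sites in grey. Right, every gained site, the 46 retained sites of the CORT list and the 47 vehicle peaks outside receptor exons, with the median as a line. The gained sites reach 70.8 at Gm20388 and 55.7 at Nfkbia, and their median of 8.66 is below that of the retained sites (13.1).

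A gained site was called a promoter site when its summit lay within 1 kb of the start of a protein-coding transcript. There were 1056 of them, 10.02% of the gained sites (9.46% to 10.6%), while 2.44% of the genome lies in that class, a ratio of 4.11. They fell on both sides of the start, with 512 upstream and 544 at or downstream of it, at a median distance of 389 bp. Within 250 bp of a start lay 390 sites. Most gained sites were away from starts. The median distance was 21386 bp, and 66.1% (65.2% to 67.0%) were more than 10 kb and 14.8% (14.1% to 15.5%) more than 100 kb away.

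Introns of protein-coding genes, promoters set aside, held 4933 gained sites (46.8%, 45.9% to 47.8%) and exons 423 (4.01%, 3.66% to 4.41%). A further 676 (6.42%) lay in other annotated genes only and 1132 (10.7%) in the flanks up to 5 kb. The 2317 remaining sites (22.0%, 21.2% to 22.8%) were more than 5 kb from every annotated gene, the distance that the study used for intergenic sites, and 43.2% of the genome is in that class, a ratio of 0.509. A repeat lay at the summit of 6.50% of gained sites (6.05% to 6.99%), against 36.4% of the genome. The study filtered reads on mapping quality to keep unique alignments, which can remove reads from repeats. The genome shares above count all sequenced bases, repeats included. The part of the filter in the repeat share, and in the ratios of promoter and far sites to the genome, was not tested.

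**Figure D2:**
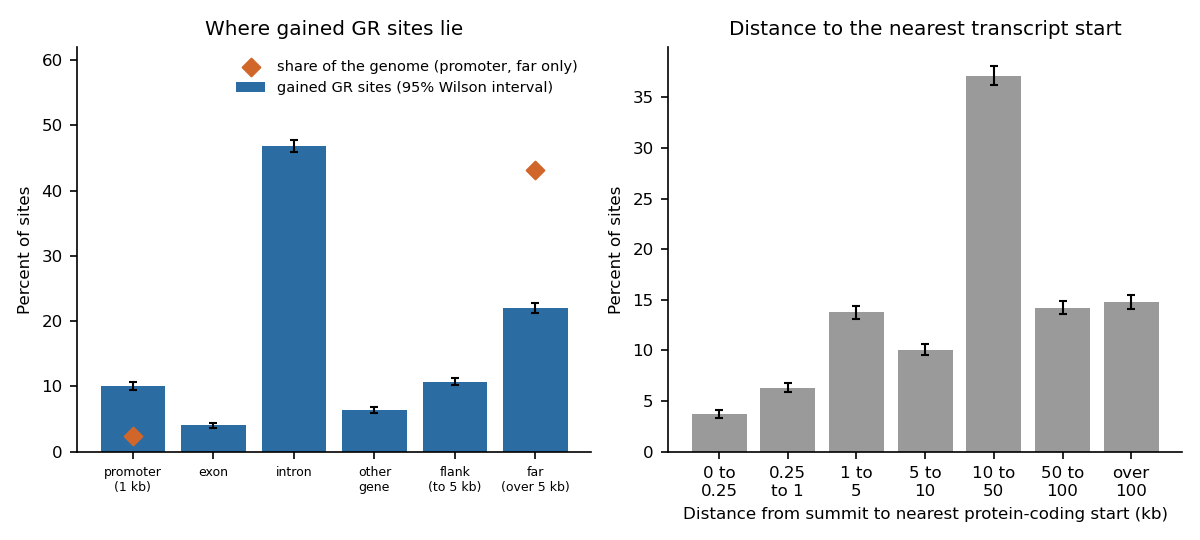
Left, percent of gained GR sites in each class of position, with 95% Wilson intervals, and the share of the genome as orange diamonds for the promoter and far classes. Right, percent of gained sites by distance in kb from the summit to the nearest protein-coding transcript start. Promoters hold 10.02% of sites against 2.44% of the genome, and the bin from 10 to 50 kb is the fullest at 37.1%.

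At promoters the strongest gained sites after Nfkbia were at Kctd17 (39.6), an adaptor of cullin ubiquitin ligases, 25 bp upstream of the start, and at Pmm1 (38.4), a phosphomannomutase. Gm16223, Gse1 and Rrm2b followed at 35.2, 34.4 and 33.5. Rrm2b encodes the stress-induced subunit of ribonucleotide reductase. Tns2, a focal adhesion protein, Fam117b, Phyhd1 and Cdkn1a, the cyclin-dependent kinase inhibitor p21, closed the group with 31.8, 30.1, 29.8 and 28.4. All 10 overlapped an MR peak after CORT and 5 had a GRE with at most 3 mismatches. The other 5 had a best match with 4. Among all gained promoter sites, 55.2% had an MR peak and 30.8% such a GRE. In the strongest quintile of all gained sites 93.3% had an MR peak.

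The 6 strongest gained sites far from genes had −log10 p from 33.5 to 47.2. Their nearest protein-coding starts were those of Srp9, Gpat2, Gm10320, 1700001O22Rik, Lgals3bp and Cd180, at distances from 9.09 to 95.1 kb. Gpat2 is a mitochondrial acyltransferase and Cd180 a receptor of B cells. Nearness is a label of position only and does not show that the gene responds. All 6 overlapped an MR peak, and 1 had a GRE with at most 3 mismatches. Over all gained sites, 60.9% had an MR peak and 37.9% such a GRE. In the strongest quintile 93.3% had an MR peak.

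Sequence was compared between promoter and other gained sites on chromosomes 1 to 19, X and Y, 1056 against 9460 sites, within 100 bp of the summit. Each motif was searched on both strands. For the GRE, at most 3 of the 12 fixed letters could differ. Over all these gained sites, 37.9% (37.0% to 38.8%) had a GRE match. It was found in 16.0% of windows of the same length across the genome and in 7.47% of windows centred on protein-coding starts. The start windows stood on the start itself, while gained promoter sites lay at a median of 389 bp from one.

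A GRE match was less frequent at gained promoter sites, 30.8% (28.1% to 33.6%), than at the other gained sites, 38.7% (37.7% to 39.7%), a difference of −7.89 percentage points (−10.8 to −4.88, two-sided Fisher's exact test, adjusted p = 6.37e-07 over 9 comparisons). Both shares were above those of windows on protein-coding starts (7.47%) and across the genome (16.0%). The background share was thus lower at starts as well. AP-1 (TGAGTCA), the motif of Fos and Jun dimers, was at 4.64% of promoter sites and 9.24% of the others (adjusted p = 1.50e-07, Fisher's exact test). The motif of GATA factors (AGATAA) was at 5.59% and 12.2% (adjusted p = 3.04e-11, Fisher's exact test). The genome windows gave 3.12% for AP-1 and 13.4% for GATA. Windows on protein-coding starts gave 2.70% and 5.42%. AP-1 was above both kinds of window in both groups of sites. GATA at the other sites was below the genome share, and at promoter sites its interval (4.36% to 7.14%) held the share of the start windows.

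NF-1 (TTGGC and GCCAA, 5 bases apart, at most 2 mismatches) was at 7.48% and 9.52% (adjusted p = 0.0295, Fisher's exact test). The CCAAT box was at 17.0% and 19.9% (adjusted p = 0.0275, Fisher's exact test). These differences were small, and neither passed 0.05 when only 50 bp around the summit were read. Windows on protein-coding starts gave 7.16% for NF-1 and 24.6% for the CCAAT box, and genome windows 5.59% and 29.7%. The CCAAT box was below both kinds of window in both groups of sites. For NF-1 the interval at promoter sites (6.04% to 9.23%) held the share of the start windows.

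The GC box, ETS and NRF1 motifs went the other way. The GC box (GGGCGG), bound by Sp1, was at 21.02% (18.7% to 23.6%) of promoter sites and 5.26% (4.83% to 5.73%) of the others (adjusted p = 3.36e-58, Fisher's exact test). ETS (CCGGAAG) was at 4.55% and 1.51% (adjusted p = 3.60e-09, Fisher's exact test), and NRF1, allowing 1 mismatch, at 1.52% and 0.169% (adjusted p = 2.74e-08, Fisher's exact test). Windows on all protein-coding starts, centred on the start itself, held them more often than the gained promoter sites did, at 37.4%, 8.56% and 5.66%. Windows across the genome held them at 1.93%, 0.562% and 0.190%. Because the sites were split by their distance to a start, the direction of these differences could be foreseen. The tests of these motifs therefore say nothing about GR binding. Base composition differed in the same direction, with a median GC content of 56.2% at promoter sites, 50.7% at the others and 41.3% in genome windows. The part of base composition, or of distance from the start, in the motif shares was not tested.

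An MR peak after CORT lay over 55.2% (52.2% to 58.2%) of gained promoter sites and 61.5% (60.6% to 62.5%) of the others, a difference of −6.34 percentage points (−9.50 to −3.20, adjusted p = 9.64e-05, Fisher's exact test).

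Gained sites without an MR peak after CORT were weaker and narrower. On the assembled chromosomes there were 4111 of them, with a median −log10 p of 7.53 and a median width of 97 bp, beside 9.99 and 145 bp for the 6405 gained sites with an MR peak. None exceeded 20, while 402 of the others did. A GRE match was at 30.6% (29.3% to 32.1%) of sites without an MR peak and 42.5% (41.3% to 43.7%) of those with one. Because both shares also moved with strength, the part of strength in this difference was not tested. The strongest gained site without an MR peak lay in an intron of Slc38a7, a neuronal glutamine transporter, 1.18 kb from its start, at 19.8. Another, at 17.2, lay in an intron of Thra, the thyroid hormone receptor alpha.

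**Figure D3:**
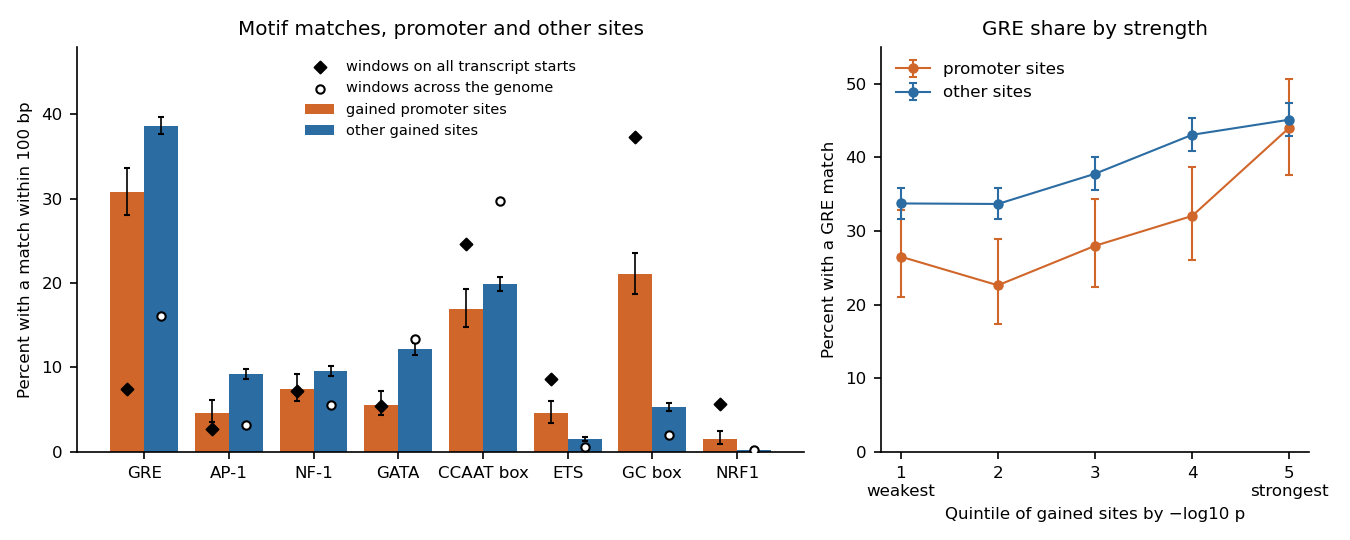
Left, percent of gained promoter sites (orange) and other gained sites (blue) with a motif match within 100 bp of the summit, with 95% Wilson intervals, diamonds for windows on all protein-coding starts and open circles for windows across the genome. Right, percent with a GRE match in each quintile of gained sites by −log10 p, for promoter and other sites. GC boxes stand at 21.02% of promoter sites against 5.26% of the others, and the GRE shares of both kinds are highest in the strongest quintile, at 44.0% and 45.1%.

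Stronger gained sites had GRE matches more often. In quintiles of strength, from the weakest to the strongest, the share was 33.0%, 32.6%, 36.8%, 42.0% and 45.0%. With at most 1 mismatch it was 1.52%, 1.28%, 1.71%, 1.95% and 2.76%. In the strongest quintile, promoter sites (44.0%, 37.6% to 50.7%) and other sites (45.1%, 42.9% to 47.4%) had overlapping intervals. In the second weakest quintile they stood at 22.6% (17.4% to 28.9%) and 33.7% (31.6% to 35.8%). The promoter share itself was 10.2%, 9.46%, 10.4%, 9.80% and 10.4% from weakest to strongest. The share with an MR peak went from 36.9% in the weakest quintile to 93.3% in the strongest, and peaks also widened, from a median of 99 to 197 bp.

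A full GRE was rare. Only 18 gained sites (0.171%, 0.108% to 0.270%) had all 12 letters, 176 had 1 mismatch, 913 had 2 and 2876 had 3. The sites with a full GRE were not the strongest ones, with −log10 p from 6.37 to 33.5 and a median of 8.66, which equals the median of all gained sites. None lay at a promoter. The strongest was in an intron of P4ha2, a prolyl hydroxylase of collagen synthesis. Another stood 22.4 kb upstream of Ddit4, an inhibitor of mTORC1 signalling, with 23.4. Among promoter sites, 14 had a GRE with 1 mismatch, led by Pnmt (22.0), Plec (18.4), a linker of the cytoskeleton, and Per1 (17.8). The centre of the best match lay a median of 28 bp from the summit among the 3983 sites with a match.

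The 46 GR sites of the CORT list that did overlap a vehicle peak are called retained here. The 47 vehicle peaks outside receptor exons were crowded into few places, with 8 at chr2:98662319-98667321, 7 at chr9:3000011-3030259, 7 at chr14:19416088-19419460, 14 on unplaced scaffolds and 11 elsewhere. CORT peaks overlapped 42 of them and 5 had no CORT peak over them. Of these 47, 38 lay over a border pair of the vehicle input (80.9%, 67.5% to 89.6%).

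Among retained sites on the assembled chromosomes, 0 of 34 had a GRE match (0 to 10.2%, and up to 8.82% when the limit is set at 3 counts of the total), against 37.9% of gained sites (a difference of 37.9 percentage points, 27.7 to 38.8, adjusted p = 1.12e-07 over 2 comparisons, two-sided Fisher's exact test). A border pair of the CORT input lay over 76.1% (62.1% to 86.1%) of the 46 retained sites and 0.256% (0.176% to 0.373%) of gained sites (adjusted p = 1.09e-73, Fisher's exact test). Retained sites lay in repeats in 26 of 34 cases, with a median GC content of 34.8%, while gained sites had 51.2%. GR peaks after washout covered 42 of 46 retained sites (91.3%) and 166 gained sites (1.58%). Neighbouring retained sites share the same repeat blocks and are not independent of one another.

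Near the boundary of the rule the values were as follows. The retained site with the smallest overlap shared 79 bp with its vehicle peak and had a −log10 p of 13.4. On the other side, 5 gained sites lay within 500 bp of a vehicle peak without touching it, at gaps of 66 to 387 bp, with −log10 p from 6.79 to 14.3, and all 5 overlapped a border pair of the CORT input.

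Gained sites were spread unevenly over chromosomes. The density was 3.97 sites per Mb over all sequenced bases and 9.70 on chromosome 8, which held 1218 sites, or 11.6% of the total. Chromosome 11 came next with 6.78 per Mb, followed by chromosome 2 with 6.09 and chromosome 19 with 5.98. The low end was chromosome 14 with 1.34, X with 0.410 and Y with 2 sites in all. In the input chromatin, too, chromosome 8 stood first, with 10.3 border pairs per Mb after CORT and 11.9 after vehicle, where the next chromosome, 13, had 2.94 and 3.67. Over chromosomes 1 to 19 and X, gained sites per Mb and CORT input border pairs per Mb had a Pearson correlation of 0.74 and a Spearman correlation of 0.65 (n = 20 chromosomes of 1 pair of libraries). Without chromosome 8 these were 0.61 and 0.59. Against protein-coding genes per Mb, the correlations of gained sites were 0.43 and 0.51 with chromosome 8 and 0.57 and 0.54 without it. Only 27 gained sites overlapped a border pair of the CORT input. The part of input density, or of copy number, in the counts of gained sites was not tested.

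The densest stretch of 7 Mb on chromosome 8, from 120 to 127 Mb, held 367 gained sites, 30.1% of that chromosome's, at 52.4 per Mb against 7.17 per Mb on the rest of it. Border pairs of the CORT input stood at 12.9 per Mb in that stretch and 10.1 per Mb on the rest of the chromosome. A GRE match was found at 31.9% of its sites, an MR peak lay over 68.4% of them, and 2 of them overlapped an input border pair. The fullest single Mb, from 120 to 121, held 96 gained sites. Across the genome, 52.4% (51.4% to 53.3%) of gained sites had another within 10 kb, and 761 chains of 3 or more sites were found in which each neighbour was within 10 kb. The longest chain had 16 sites in 26.1 kb on chromosome 8, in no annotated protein-coding gene, and one with 14 sites in 46.8 kb lay at Macrod1.

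**Figure D4:**
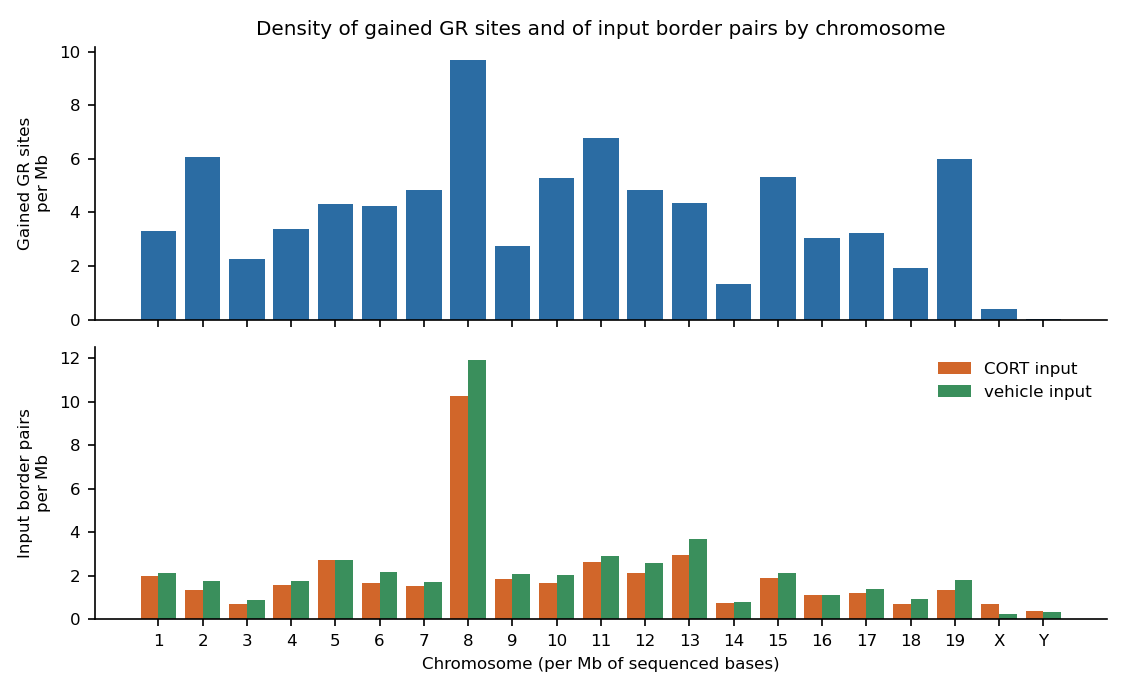
Top, gained GR sites per Mb of sequenced bases on each chromosome. Bottom, border pairs of the CORT and vehicle input per Mb. Chromosome 8 is highest in both, with 9.70 gained sites and 10.3 CORT input border pairs per Mb.

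A gained site lay in or within 5 kb of 5707 of the 55536 annotated genes (10.3%). Among protein-coding genes it was 3876 of 22028 (17.6%), and 981 of the 21943 with a protein-coding transcript (4.47%) had a gained promoter site. Most of the 3876 had 1 site (59.3%), while 325 had 5 or more and 70 had 10 or more. Genes with a site were longer, with a median of 39.2 kb against 14.7 kb. In quintiles of gene length, from shortest to longest, 7.94%, 10.5%, 14.7%, 20.0% and 34.8% had a site, and 2.66%, 3.68%, 4.95%, 5.15% and 5.83% had a promoter site.

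Gm20388 held the most gained sites, 257 over 4435 kb. Gse1, inside it, had 78 over 353 kb. Slit3, an axon guidance ligand, had 31, Frmd4a 25 and Myo16, an unconventional myosin, 22. Klhl29 and Ttc28 had 21 each, Macrod1 20, and Mtus1 and Fgfr2, a receptor of fibroblast growth factors, 19 each. Fgfr2 reaches that count over 2961 kb of annotated length, and Macrod1 over 141 kb. Gm20388, Gse1, Myo16 and Mtus1 are on chromosome 8, where both gained sites and input border pairs were densest.

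Per length of gene with flanks, the densest protein-coding genes with at least 5 sites were Enpp7, an intestinal sphingomyelinase, with 4.66 sites per 10 kb, Fjx1 with 3.81, Kbtbd11 with 3.40 and F2rl2, a thrombin receptor of the PAR family, with 3.15. Rara, the retinoic acid receptor alpha, followed with 15 sites or 2.63 per 10 kb, and Zfpm1, a cofactor of GATA factors, with 17 sites or 2.61. Kbtbd11 and Zfpm1 are also on chromosome 8. The strongest site of F2rl2 was at its promoter, 316 bp from the start, with a GRE of 2 mismatches and a −log10 p of 20.3.

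Of 30 genes widely known as glucocorticoid-induced, 16 (53.3%, 36.1% to 69.8%) had a gained site and 8 (26.7%, 14.2% to 44.4%) a promoter site, beside 17.6% and 4.47% of all protein-coding genes. The promoter sites were at Fkbp5, Per1, Dusp1, Nfkbia, Ddit4, Cdkn1a, Tgm2 and Tiparp. Ddit4 had its strongest site 642 bp from the start at 20.3, with a GRE of 3 mismatches. Tiparp, a mono-ADP-ribosyltransferase, had one at 13.9 and Cdkn1a at 28.4. Dusp1, the phosphatase that turns off MAP kinases, had a strongest site of only 8.76, in an intron. Tgm2, a transglutaminase, held 9 sites with the strongest at 25.1, also in an intron. Genes with a site outside promoters included Zfp36, which speeds decay of cytokine mRNAs, at 23.4, Hif3a at 22.7 and Sesn1 at 14.2. The 14 without a listed site included Tsc22d3, Klf9 and Bcl6, all well-known targets in other cells.

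The list of 14 liver glucocorticoid targets had 1 gene with a gained site (7.14%, 1.27% to 31.5%), beside 17.6% of all protein-coding genes. The gene was Fgf21, a fasting hormone, at 9.29, and 0 had a promoter site. Tat, Pck1 and G6pc, enzymes of amino acid breakdown and glucose output, had none.

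AP-1 factors had gained sites at 9 of 13 genes (69.2%, 42.4% to 87.3%), beside 17.6% of all protein-coding genes. Promoter sites were at Fosl2, Atf3, Maff and Mafk (30.8% of the list, beside 4.47% of all protein-coding genes). Mafk, a small Maf partner of bZIP factors, had a promoter site of 24.7, 55 bp from its start. Atf3 had one of 14.3 and Maff one of 10. Junb had a site of 17.2, and those of Fos and Jun stood at 6.15 and 8.66.

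Clock genes had gained sites at 9 of 20 (45.0%, 25.8% to 65.8%) and promoter sites at 3 (15%), beside 17.6% and 4.47% of all protein-coding genes. The promoter sites of the period repressors Per1 and Per2 were at 17.8 and 17.2, lying 459 and 449 bp from the start. The GRE of Per1 had 1 mismatch and that of Per2 had 3.

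Catecholamine genes had gained sites at 6 of 16 (37.5%, 18.5% to 61.4%), beside 17.6% of all protein-coding genes. Pnmt had a promoter site at 22.0, 400 bp from the start. Slc18a2, the vesicular monoamine transporter, held 7 sites with the strongest at 12.8, and Cyb561, which regenerates ascorbate in vesicles, held 3. Both had a promoter site among them. Th, the rate-limiting enzyme of catecholamine synthesis, had 2 sites with the strongest at 14.2 in an intron, while Dbh had none.

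Sympathetic neuroblast factors had gained sites at 7 of 15 (46.7%, 24.8% to 69.9%), beside 17.6% of all protein-coding genes. Gata3 was the member with a promoter site, at 11.6. Mycn, a growth-promoting transcription factor often amplified in neuroblastoma, had 1 site at 7.10.

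Receptor coregulators had gained sites at 7 of 15 genes (46.7%, 24.8% to 69.9%), beside 17.6% of all protein-coding genes and 34.8% of the longest quintile of them. The median gene of that list was long (88.1 kb). Receptor chaperones had gained sites at 2 of 16 (12.5%, 3.50% to 36.0%), Fkbp5 and Cdc37, a kinase co-chaperone. Hsp90aa1, Hsp90ab1 and Fkbp4 had none. Ribosomal protein genes, a set with no special link to glucocorticoids, had gained sites at 16 of 77 (20.8%, 13.2% to 31.1%) and promoter sites at 2.60% of them. The median gene of that list was short (3.29 kb). In the shortest quintile of protein-coding genes, 7.94% had a gained site and 2.66% a promoter site. Lists differ in gene length and were chosen with earlier results of these data known, so their counts are descriptions. Members were counted at 5 kb only, which leaves out sites just beyond it, such as those near Chga at 31.8, Angptl4 at 21.8 and Lpin1 at 21.8.

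**Figure D5:**
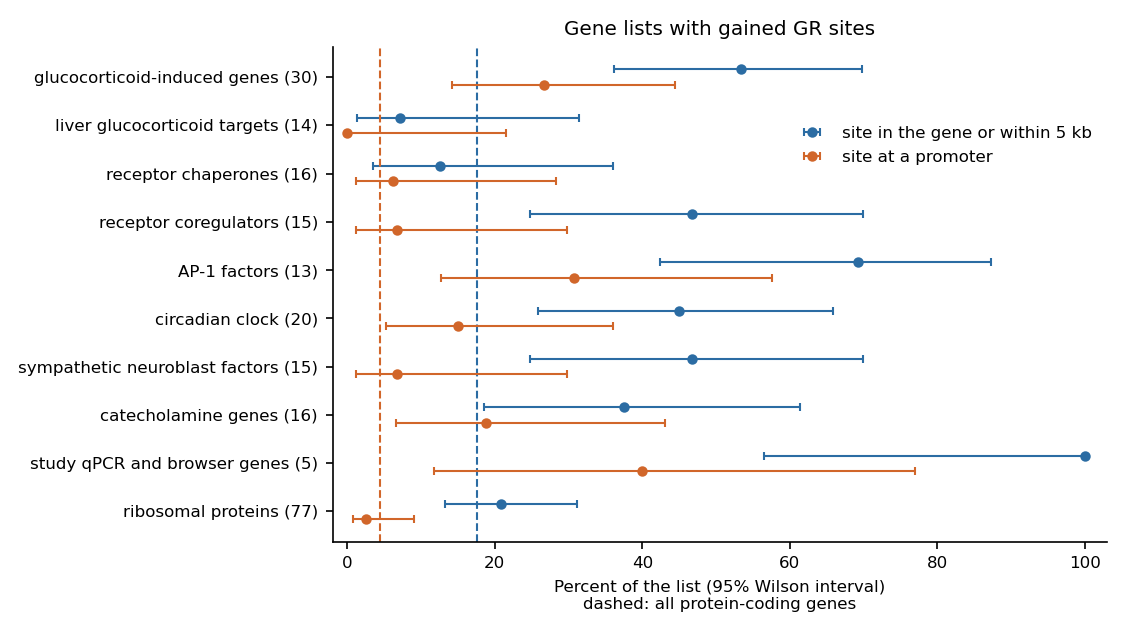
Percent of each gene list with a gained GR site in the gene or within 5 kb (blue) and at a promoter (orange), with 95% Wilson intervals and the number of genes in brackets. Dashed lines mark all protein-coding genes, 17.6% and 4.47%. Glucocorticoid-induced genes stand at 53.3% and 26.7%, and liver targets at 7.14% and 0.

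Fkbp5, Syt2, Ddc, Sgk1 and Dusp4, chosen because qPCR or browser views of them exist, all had gained sites, which is not independent of that choice. Fkbp5 held 12 over its 118 kb and flanks, with −log10 p from 6.41 to 37.0. Its full GRE lay at the site 97161 bp inside the gene from the annotated 5′ end, at 9.43, and a site 649 bp upstream of that end stood at 17.2 with a GRE of 3 mismatches. Ddc held 5, of which the site 32772 bp inside the gene, at 18.1, had the closest GRE, with 2 mismatches. Syt2, a calcium sensor of synaptic vesicle release, held 2 sites, in an intron at 23.4 and at a promoter at 7.38, both with a best GRE match of 4 mismatches. Dusp4, a phosphatase of MAP kinases, had its strongest site in an intron at 26.7, also with 4 mismatches. Sgk1, a kinase that controls sodium transport, had sites of 8.66 and 6.00, the weakest maximum of these genes, with 4 and 5 mismatches.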

How the data were processed

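ChIP-nexus of GR through EGFP, of MR through mCherry, and input chromatin were measured in N2A cells after vehicle, CORT, and CORT with washout. The authors quality-trimmed the reads, used Bowtie2 for alignment to GRCm38 (mm10), removed PCR duplicates by random barcode and filtered on mapping quality. They combined the 3 replicates of a condition and called peaks with MACS2 (2.1.1.20160309 per the labels) against input at a false discovery rate under 0.05. Border pairs were called with MACE. As a score, the authors deposited 10 times the −log10 q, cut to a whole number. On the −log10 scale the authors deposited p and, under a heading for fold enrichment, q, so fold enrichment was not used. The lists hold no reads, so depth is unknown and intervals cover counting error only. Input was compared through its deposited border pairs.

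From these lists, peaks over coding exons of Nr3c1 and Nr3c2 (GENCODE M21) were removed, and CORT peaks were joined to vehicle peaks at 1 bp. Promoters were 1 kb around starts of protein-coding transcripts, and genes were assigned within 5 kb. Sequence came from RefSeq GRCm38.p6, on chromosomes 1 to 19, X and Y. Shares were tested two-sided by Fisher's exact test, adjusted by Benjamini and Hochberg with a threshold of 0.05, in a family of 9 for promoter against other sites and of 2 for gained against retained sites. The members, motifs and gene lists were chosen with earlier results of these data known. Genes named are those of the 15 strongest gained sites, the 10 strongest at promoters, the 6 strongest far from genes, the 10 genes with most sites, the 6 densest with at least 5 sites, members of each list with a promoter site or the 4 with the strongest sites, and 5 genes of the study. Others, such as list members without a site or with a site elsewhere, the sites with a full GRE or with 1 mismatch at a promoter, and the strongest sites without an MR peak, were named after their values were seen. Methods were tested on simulated intervals, sequences and tables. Python 3.11.15, numpy 2.4.6, pandas 2.3.3, scipy 1.17.1, pysam 0.24.0, samtools 1.23.1 and matplotlib 3.10.9 were used. Alternatives changed the threshold, overlap, input, chromosome 8, distances, gene set, mismatches and window. Border pairs of MR and of the washout samples, and MR peaks after washout, were not used here. Some members of the gene lists are counted but not reported here by name.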

Additional observations from a re-analysis of the deposited data

How the results depend on the processing

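Of 67 alternatives over 16 results, 54 stayed on the same side of the threshold, or within the interval or 1.5 times the count, 11 moved, 2 lost their call and 0 reversed. Keeping peaks of both lists with a −log10 q of at least 5 left 4768 gained sites, 3238 genes and 4.92 sites per Mb on chromosome 8, with fewer peaks by construction. Without chromosome 8 the highest density was 6.78 per Mb, on chromosome 11. The promoter share was 6.16% within 500 bp, 16.8% within 2.5 kb, 7.14% with 1 start per protein-coding gene and 15.6% with transcripts of all genes. The share far from genes was 15.8% beyond 10 kb and 32.1% with protein-coding genes only. Counting peaks in the gene alone left 3542 genes. Within 50 bp of the summit, the odds ratios of promoter against other sites by Fisher's exact test were 0.732 for NF-1 (adjusted p = 0.106) and 0.903 for the CCAAT box (adjusted p = 0.412), and within 200 bp both passed again. The difference in GRE between gained and retained sites had an adjusted p of 0.0447 with at most 2 mismatches, and 6.45e-10 and 1.52e-10 in the other alternatives (Fisher's exact test). No paired analysis was possible because each condition has 1 combined list with no replicate columns, and no replicate could be left out for the same reason. The depth of the vehicle list limits what gained means, since weak binding before CORT would be missing from it.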
